A study of Sus scrofa with 2 samples.

Results

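The collagen genes of the pig pancreas were followed in nuclei of 1 WT and 1 PIGinH11 pig by single-nucleus RNA sequencing. They were chosen by symbol, as genes whose name in the deposited list has the form of a collagen chain, and 38 of 39 such symbols among the 31908 listed genes are described. By type they are 9 fibrillar, 5 basement membrane, 2 multiplexin, 8 fibril-associated (FACIT), 5 beaded filament, 3 short chain and anchoring, 4 transmembrane and 2 other collagens. Both Bama pigs were 18 months old and had control diet until 6 months of age and then 12 months of a high-fat, high-sucrose diet (HFHSD) in which control diet made up 53%, sucrose 37% and pork lard 10%. The PIGinH11 pig is transgenic, with GIPRdn, hIAPP and PNPLA3 I148M knocked in at the H11 locus under promoters of beta cells or liver, so that the stromal cells described here are not the cells these promoters were chosen for. Each group is 1 piece of pancreas of 1 animal. No comparison between the pigs could therefore be tested, and all intervals in parentheses are exact 95% intervals of the counting error within these libraries.

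Collagens are built from chains wound into a triple helix. Fibrillar collagens such as types I, III and V form the tensile fibres of connective tissue, FACIT collagens coat these fibres, type VI makes beaded filaments around cells, and type IV makes the network of the basement membrane under epithelia and around vessels and nerves. In the pancreas the stellate cell is the fibroblast best known for making collagen, and its activation is a hallmark of fibrosis.

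The WT matrix held 55784067 UMIs (unique molecular identifiers, one for each captured RNA molecule) in 13619 barcodes and the PIGinH11 matrix 26228811 UMIs in 14964 barcodes, and 60 barcode sequences occurred in both. After filtering, 11854 and 13126 nuclei were kept, with medians of 3018.5 and 1167 UMIs. Ribosomal protein genes took 0.667% and 0.335% of all UMIs in WT and PIGinH11, and mitochondrial genes 0.136% and 0.0482%. Nuclei were clustered without the collagen genes and named from markers that include none of them. The classes, WT first, were stellate-like (191 and 254 nuclei), mural-like (38 and 79), endothelial-like (265 and 474), Schwann-like (46 and 137), acinar-like (8436 and 9103), ductal-like (2154 and 2197) and endocrine-like (280 and 480). Each class held its own markers, but mural-like nuclei also held 4799 and 4125 CPM of stellate markers beside 3258 and 3066 CPM of their own. A level is the number of UMIs of a gene per 1000000 UMIs of the same class and library (CPM), and where 2 values are joined, WT comes first and PIGinH11 second. Long genes collect more intronic UMIs, so levels are compared between classes and libraries and not between genes.

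Per UMI and over whole classes, collagen transcripts were densest in stellate-like and sparsest in acinar-like nuclei in both libraries. Schwann-like and mural-like nuclei lay between. The 38 genes summed to 6393 CPM (6209 to 6581) in WT and 4990 CPM (4783 to 5204) in PIGinH11 stellate-like nuclei. Schwann-like nuclei held 4858 and 3905 CPM and mural-like nuclei 2977 and 4444 CPM, so that PIGinH11 mural-like nuclei came above the Schwann-like ones. This order depended on which Schwann-like nuclei were counted. A second clustering of the class gave a sub-cluster of 91 PIGinH11 and 0 WT nuclei at 1887 CPM. Another, with 38 and 37 nuclei, was at 5647 and 6042 CPM, in PIGinH11 above the stellate-like sum. The sums were 1269 and 1370 CPM in endothelial-like, 1161 and 1643 CPM in ductal-like, 819.8 and 1245 CPM in endocrine-like and 449 and 811 CPM in acinar-like nuclei. Stellate-like nuclei were 1.67% of the WT nuclei in these classes and held 14.5% of their collagen UMIs, against 2.00% and 8.90% in PIGinH11. The many acinar-like nuclei held 43.0% and 51.6% of the collagen UMIs. A stellate-like nucleus held a median of 8 different collagen genes in WT and 4 in PIGinH11, and a mean of 2.64 and 2.03 when every nucleus was thinned to 500 UMIs.

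**Figure D1:**
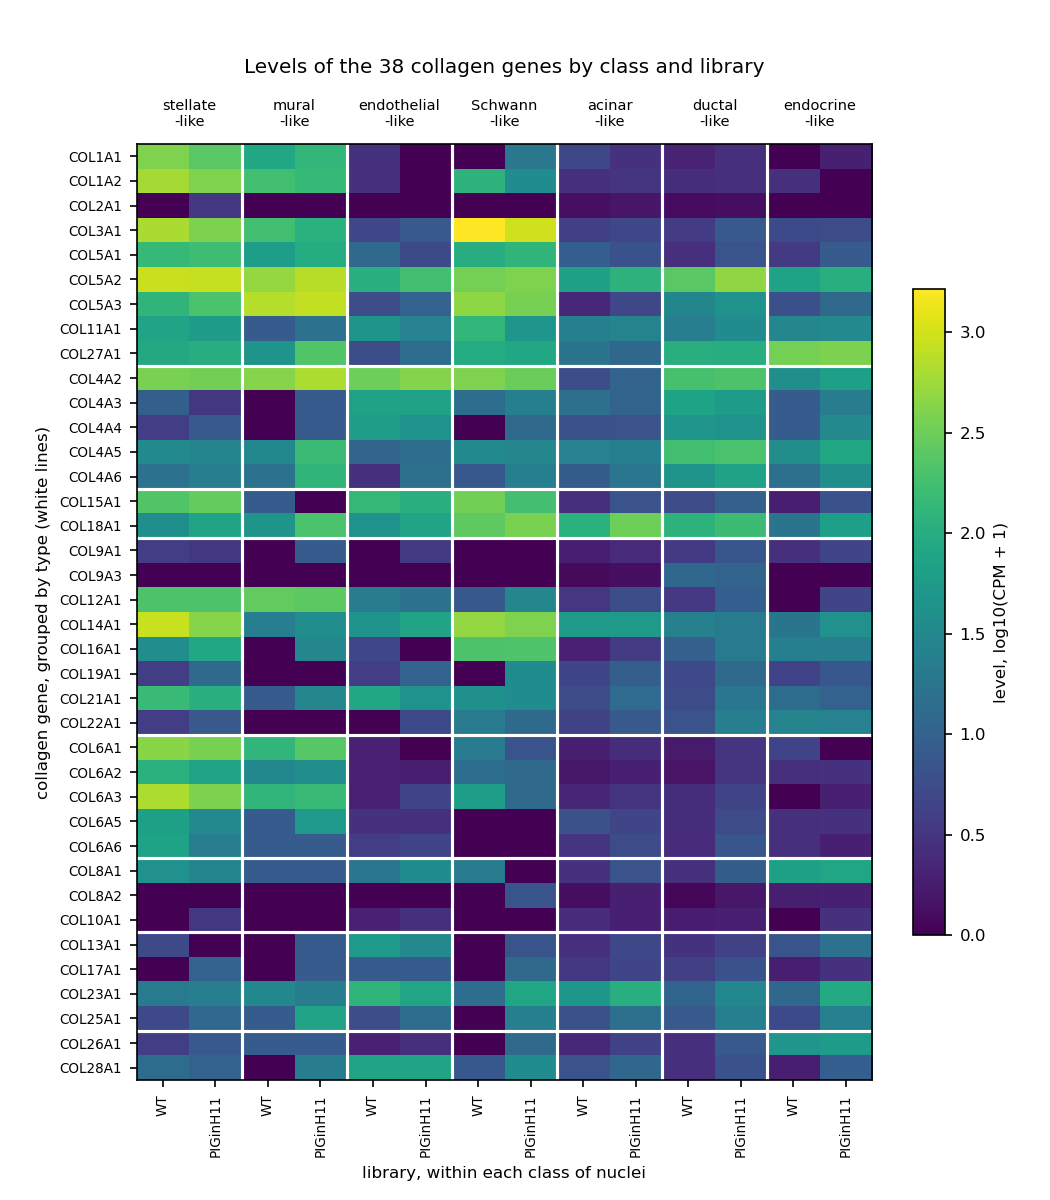
Level of each of the 38 collagen genes (rows, grouped by type) in each of the 7 classes of nuclei (columns, WT and PIGinH11 side by side), as log10(CPM + 1). The types I and VI genes are bright in stellate-like nuclei, COL3A1 is brightest in Schwann-like nuclei, COL5A3 in mural-like nuclei and COL27A1 in endocrine-like nuclei.

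All 38 genes had at least 20 UMIs over the 7 classes, and 35 had at least 100. For 25 genes the same class was highest in both libraries. Stellate-like nuclei led for 10 of the 38 genes (COL1A1, COL1A2, COL5A1, COL5A2, COL6A1, COL6A2, COL6A3, COL6A6, COL14A1 and COL21A1), while they led for 4.93% of all 21014 genes with as many UMIs. Mural-like nuclei led for 4 (COL4A2, COL5A3, COL12A1 and COL25A1, background 4.15%), endocrine-like nuclei for 4 (COL8A1, COL22A1, COL26A1 and COL27A1, background 8.68%) and Schwann-like nuclei for 3 (COL3A1, COL16A1 and COL18A1, background 4.14%). Endothelial-like nuclei led for 2 (COL13A1 and COL28A1, background 7.45%), ductal-like nuclei for 2 (COL4A5 and COL9A3, background 6.53%) and acinar-like nuclei for 0 (background 7.15%). The lead over the next class exceeded the counting error in both libraries for 13 genes, 5 of them in stellate-like nuclei (COL1A1, COL1A2, COL6A1, COL6A3 and COL21A1).

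Type I collagen, the main fibre of scar and tendon, is made of chains from COL1A1 and COL1A2, and both genes led in stellate-like nuclei. COL1A1 was at 396 CPM (351 to 445) in WT and 249.7 CPM (205 to 301) in PIGinH11. Mural-like nuclei were next with 83.5 and 133 CPM. COL1A2 was at 599 and 392 CPM in stellate-like and 175 and 141 CPM in mural-like nuclei. Neither gene exceeded 3.97 CPM in endothelial-like, acinar-like, ductal-like or endocrine-like nuclei. A COL1A2 UMI was found in 69.6% and 31.1% of stellate-like nuclei and in 0.616% and 0.341% of acinar-like nuclei, at median depths of 3229 and 1155 and of 2849 and 1199 UMIs.

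COL3A1, the chain of the type III collagen of soft tissues and vessel walls, was densest in Schwann-like nuclei. They held 1646 CPM (1447 to 1865) in WT and 968 CPM (825 to 1128) in PIGinH11. This was 2.54-fold (2.16 to 2.97) the stellate-like level in WT and 2.51-fold (2.01 to 3.14) in PIGinH11. The proportion to COL1A2 also differed between these classes. Stellate-like nuclei held 1.08 (0.949 to 1.24) and 0.983 (0.789 to 1.22) COL3A1 UMIs for each COL1A2 UMI, and Schwann-like nuclei 13.7 (8.47 to 23.5) and 27.2 (12.2 to 75.1). Stellate markers summed to 495 and 1027 CPM in Schwann-like nuclei, against 20870 and 15480 CPM in stellate-like nuclei.

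Type V chains, which control the diameter of type I fibrils, were spread over more classes. COL5A2 was at 909 and 864 CPM in stellate-like, 509 and 748 CPM in mural-like and 247 and 481 CPM in ductal-like nuclei. The stellate-like lead over mural-like nuclei was 1.79-fold (1.39 to 2.33) in WT and 1.16-fold (0.925 to 1.45), within counting error, in PIGinH11. COL5A1 was at 140 and 165 CPM in stellate-like and 100.4 and 125 CPM in Schwann-like nuclei, an order within the counting error. COL5A3 had its highest level in mural-like nuclei, 729 and 829.5 CPM, which was 1.56-fold (1.13 to 2.15) and 2.29-fold (1.66 to 3.18) the level of Schwann-like nuclei. Stellate-like nuclei held only 127 and 204 CPM of it.

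The other fibrillar chains are best known from cartilage. COL27A1 was highest in endocrine-like nuclei, at 351 and 378 CPM, with a UMI in 67.1% and 43.8% of them. The next class was ductal-like in WT (104 CPM) and mural-like in PIGinH11 (222 CPM from 30 UMIs). COL11A1 led in WT Schwann-like nuclei with 134 CPM and in PIGinH11 stellate-like nuclei with 57.3 CPM. The PIGinH11 lead over Schwann-like nuclei, 1.21-fold (0.527 to 3.09), was within counting error. COL2A1 had 24 UMIs in all, none of them in mural-like, endothelial-like, Schwann-like or endocrine-like nuclei.

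Type VI collagen, whose filaments tie cells to the surrounding matrix, had 4 of its 5 genes led by stellate-like nuclei in both libraries. COL6A1 was at 447 and 364 CPM and COL6A3 at 654 and 376 CPM there. Mural-like nuclei held 129 and 237 CPM of COL6A1 and 129 and 148 CPM of COL6A3, while in endothelial-like, acinar-like, ductal-like and endocrine-like nuclei both were at most at 3.62 CPM. COL6A2 was at 112 and 75.6 CPM in stellate-like nuclei. COL6A6 was at 72.8 and 22.9 CPM in stellate-like nuclei. COL6A5 was at 67.2 and 32.1 CPM there. In PIGinH11 its highest level was in mural-like nuclei, 51.8 CPM from 7 UMIs, with an order that counting error covered. Neither COL6A5 nor COL6A6 had a UMI in Schwann-like nuclei, which allows up to 20.1 and 17.8 CPM, the level of 3 counts.

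FACIT collagens bind the surface of fibrils, and each had its own distribution. COL14A1 was at 883 and 426 CPM in stellate-like and 502 and 398 CPM in Schwann-like nuclei, which made 1.76-fold (1.38 to 2.27) in WT and, within counting error, 1.07-fold (0.806 to 1.44) in PIGinH11. COL12A1 was at 273 and 252 CPM in mural-like nuclei and, within counting error of that, at 210 and 209 CPM in the stellate-like ones. COL21A1 was at 151 and 110 CPM in stellate-like and 82.3 and 43.6 CPM in endothelial-like nuclei. COL16A1 was highest in Schwann-like nuclei, at 208 and 214 CPM, 5.70-fold (3.28 to 10.00) and 2.59-fold (1.59 to 4.23) the stellate-like level. COL9A3 was low and highest in ductal-like nuclei, with 92 and 32 UMIs there (10.7 and 9.64 CPM). Acinar-like nuclei held 6 and 5 UMIs and the other 5 classes none. The level of 3 counts was 22.8 and 22.2 CPM in mural-like and 20.1 and 17.8 CPM in Schwann-like nuclei. Both lie above the ductal-like level, so a lower level in mural-like and Schwann-like nuclei could not be shown. COL9A1, COL19A1 and COL22A1 did not exceed 35.6 CPM in any class.

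Type IV chains build the basement membrane. COL4A2 was at 433 and 667 CPM in mural-like nuclei and at 324 and 412 CPM in endothelial-like nuclei. Its level was 388 and 309 CPM for the Schwann-like class, with 365 and 344 CPM in the stellate-like one. Ductal-like nuclei held 193 and 209 CPM of it, and acinar-like nuclei 4.87 and 9.57 CPM. COL4A5 was highest in ductal-like nuclei, at 175 and 196 CPM, and COL4A6 was at 45.8 and 69.6 CPM there. The PIGinH11 mural-like nuclei had 156 and 126 CPM of these genes from 21 and 17 UMIs, and the WT ones 4 and 2 UMIs. COL4A3 and COL4A4, chains of specialised basement membranes, were shared by ductal-like and endothelial-like nuclei. COL4A3 was at 72.5 and 58.4 CPM in the former and 70.8 and 71.0 CPM in the latter, and COL4A4 was at 46.5 and 44.0 CPM and then 60.3 and 43.6 CPM. Counting error covered the order of both genes.

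The multiplexins COL15A1 and COL18A1 encode basement membrane collagens, and COL18A1 is the source of endostatin. COL15A1 led in WT Schwann-like nuclei (335 CPM) and in PIGinH11 stellate-like nuclei (286 CPM), with 136 and 102 CPM in endothelial-like nuclei. Most COL18A1 UMIs were in acinar-like and ductal-like nuclei. Acinar-like nuclei were at 114 and 317 CPM with a UMI in 29.6% and 36.9% of nuclei, and ductal-like nuclei were at 118 and 161 CPM. Schwann-like nuclei led with 261 and 368 CPM, in PIGinH11 1.16-fold (0.888 to 1.49) the acinar-like level and within counting error of it. The Schwann-like log2 ratio of PIGinH11 over WT was 0.496 over the class and −0.552 over sub-clusters holding both libraries. Per nucleus, acinar-like nuclei held 0.408 and 0.543 COL18A1 UMIs, stellate-like nuclei 0.147 and 0.130, and Schwann-like nuclei 0.848 and 0.453. The part of free acinar RNA in the stromal values was not tested.

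The remaining collagens differed in the class where they were highest. COL13A1, a transmembrane collagen, was highest in endothelial-like nuclei at 53.6 and 31.7 CPM, 9.04-fold (4.11 to 23.5) and 2.16-fold (1.17 to 4.15) the endocrine-like level. COL28A1 was at 73.7 and 75.3 CPM there as well. COL8A1, a short chain collagen of vessel walls, was highest in endocrine-like nuclei at 66.0 and 77.1 CPM, and so was COL26A1 at 46.5 and 57.8 CPM. The transmembrane collagen COL23A1 led in WT endothelial-like nuclei (122 CPM) and in PIGinH11 acinar-like nuclei (102 CPM). The PIGinH11 lead over endocrine-like nuclei, 1.13-fold (0.918 to 1.39), was within counting error. COL25A1 was led by mural-like nuclei from 1 and 10 UMIs, too few to place it. COL8A2, COL10A1 and COL17A1 did not exceed 11.9 CPM in any class.

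The 2 pigs were then compared within each class, to ask whether collagen transcripts differed between the transgenic and the WT pancreas after the same diet. As log2 of PIGinH11 over WT, the summed collagen level was −0.36 (−0.43 to −0.28) in stellate-like and −0.32 (−0.47 to −0.16) in Schwann-like nuclei. It was 0.58 (0.39 to 0.77) in mural-like, 0.11 (0.004 to 0.216) in endothelial-like, 0.85 (0.82 to 0.89) in acinar-like, 0.50 (0.45 to 0.55) in ductal-like and 0.60 (0.48 to 0.72) in endocrine-like nuclei. Over every gene that reached 20 UMIs in WT and in PIGinH11, the median ratio was itself off 0 in some classes, at 0.13 in stellate-like, −0.12 in Schwann-like, 0.23 in acinar-like and 0.15 in ductal-like nuclei.

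The classes' own markers also differed between the libraries. Their summed ratio was −0.43 (−0.47 to −0.39) in stellate-like nuclei, where 10 of 12 markers were lower in PIGinH11. It was −0.79 (−0.87 to −0.70) in Schwann-like nuclei, where 8 of 9 were lower. In mural-like nuclei it was −0.09 (−0.29 to 0.11), with 3 of 11 markers lower and the rest higher. There RGS5 was at −1.58 (−2.09 to −1.09) and KCNJ8 at −1.02 (−1.65 to −0.41), against NOTCH3 at 1.14 (0.54 to 1.77) and MYOCD at 1.34 (0.57 to 2.17). Acinar markers can come from other nuclei or from the class itself, which was not told apart. They were at 1989 and 2804 CPM in stellate-like, 1897 and 2602 CPM in endothelial-like and 3306 and 6487 CPM in Schwann-like nuclei. In mural-like nuclei they were lower in PIGinH11, at 4207 and 2288 CPM, a ratio of −0.88 (−1.08 to −0.68) with 9 of 9 markers lower, and in WT they exceeded the mural markers. The part of these shifts in the collagen differences was not tested.

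**Figure D2:**
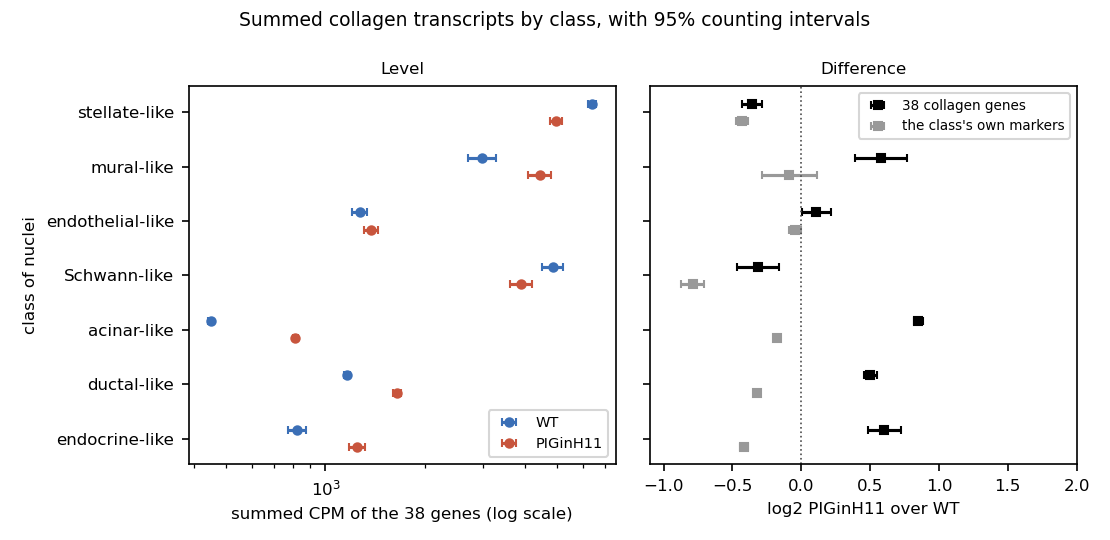
Left, summed level of the 38 collagen genes in each class (CPM, log axis) in the WT and PIGinH11 libraries. Right, log2 of PIGinH11 over WT of that sum and of the summed own markers of the class, with 95% counting intervals and 1 library per group. The collagen sum lies below 0 in stellate-like and Schwann-like nuclei, and above 0 in the other 5 classes, while the own markers lie below 0 in all 7, in mural-like nuclei with an interval that spans 0.

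In stellate-like nuclei, 24 of the 38 genes had at least 20 UMIs over both libraries, a limit a gene can pass through 1 library alone. Of these, 3 were at least 2-fold lower in PIGinH11 (COL6A5, COL6A6 and COL14A1), beside 5.54% of all 7737 genes with as many UMIs, and 1 was at least 2-fold higher (COL16A1), beside 7.68%. The median log2 ratio was −0.26 over the 24 genes and 0.09 over all genes. Counting intervals lay wholly below 0 for 8 genes, beside 8.58% of all genes, and wholly above 0 for 4, beside 13.3%.

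By type, the summed ratio in stellate-like nuclei was −0.30 (−0.41 to −0.20) for fibrillar, −0.61 (−0.78 to −0.43) for FACIT, −0.64 (−0.81 to −0.46) for beaded filament, −0.07 (−0.35 to 0.20) for basement membrane and 0.48 (0.16 to 0.79) for multiplexin collagens. Chains of interstitial fibres and filaments were among the lower ones. The log2 ratio was −0.67 (−0.998 to −0.342) for COL1A1, −0.61 (−0.88 to −0.35) for COL1A2 and −0.76 (−1.02 to −0.50) for COL3A1. Summed, these 3 genes were at 1645 and 1026 CPM in WT and PIGinH11, a ratio of −0.68 (−0.84 to −0.52). Their gene models span 18094, 35924 and 38765 bases, and the part of gene length and RNA quality, which differed between the libraries, was not tested. Among type VI chains the ratio was −0.80 (−1.07 to −0.54) for COL6A3, −0.29 (−0.58 to −0.02) for COL6A1 and −0.57 (−1.20 to 0.04) for COL6A2. COL14A1 had 631 and 186 UMIs in WT and PIGinH11 and a ratio of −1.05 (−1.30 to −0.81). Under the UMI limit of 1300 that the study's methods print, which kept 30 and 179 stellate-like nuclei, its ratio was 0.04. COL6A5 was at −1.07 (−2.04 to −0.18) from 48 and 14 UMIs, but at 0.62 under that limit. COL6A6 was at −1.67 (−2.81 to −0.68) from 52 and 10 UMIs. The values under that limit are given without counting intervals and rest on few WT nuclei, so a change of sign there is uncertain.

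Other collagens of the same nuclei did not share this direction. COL5A2 was at −0.07 (−0.26 to 0.11), COL12A1 at −0.01 (−0.40 to 0.38) and COL4A2 at −0.09 (−0.39 to 0.21), intervals that leave room for modest differences either way. Higher in PIGinH11 were COL5A3 at 0.68 (0.24 to 1.12), COL15A1 at 0.37 (0.02 to 0.72), COL16A1 at 1.18 (0.41 to 1.97) and COL18A1 at 0.95 (0.18 to 1.73). COL18A1 was at the same time 1.48 (1.42 to 1.54) in acinar-like nuclei. Under the UMI limit of 1300, COL5A3 was at 0.01 in stellate-like nuclei, while COL15A1, COL16A1 and COL18A1 were at 0.87, 1.62 and 2.67. These values rest on 30 WT and 179 PIGinH11 nuclei and are given without intervals.

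**Figure D3:**
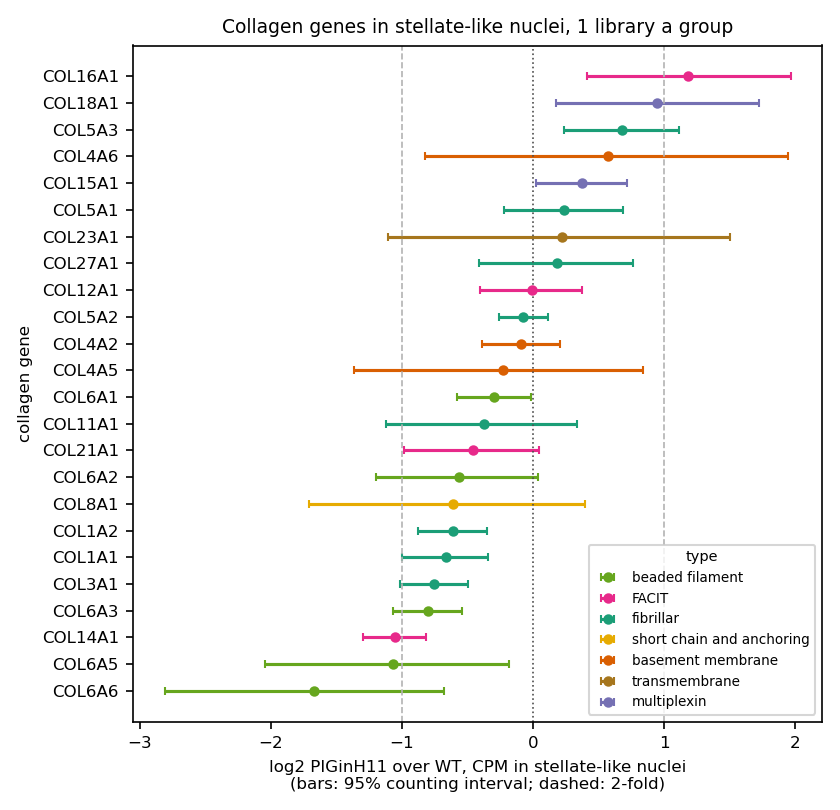
Log2 of PIGinH11 over WT for the 24 collagen genes with at least 20 UMIs in stellate-like nuclei, coloured by collagen type, with 95% counting intervals and 1 library per group. COL1A1, COL1A2, COL3A1, COL6A1, COL6A3, COL6A5, COL6A6 and COL14A1 lie wholly below 0, and COL5A3, COL15A1, COL16A1 and COL18A1 wholly above 0.

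A second clustering, again without collagen genes, gave 4 stellate-like sub-clusters with different collagens in both libraries. Sub-cluster 2 held 55 and 61 nuclei, with ADAMTSL3 and DCN among its leading genes. Several collagen genes had their highest level among the 4 sub-clusters there in both libraries. Among them were COL14A1 at 1521 and 677 CPM, COL6A6 at 176 and 49.5 CPM, COL1A2 at 928 and 567 CPM and COL3A1 at 976 and 539 CPM. COL15A1 was low there, at 96.0 and 143 CPM. It was high in sub-cluster 1 (79 and 92 nuclei, with ABCA8 and THBS1 leading) at 388 and 453 CPM and in sub-cluster 4 (35 and 40 nuclei, with RSPO3 and C7 among its leading genes) at 364 and 582 CPM. Sub-cluster 1 held less COL14A1, 384 and 294 CPM, and COL1A2, 384 and 268 CPM. COL6A5 was highest in different sub-clusters of the 2 pigs, with 132 and 5.50 CPM in sub-cluster 2 and 33.1 and 210.2 CPM in sub-cluster 4.

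The difference between the pigs was uneven over these sub-clusters. The summed ratio of the 38 genes was 0.087 (−0.055 to 0.227) in sub-cluster 1 and −0.57 (−0.68 to −0.46) in sub-cluster 2. It was −0.95 (−1.22 to −0.69) in sub-cluster 3 and −0.29 (−0.47 to −0.12) in sub-cluster 4. The stellate markers were at −0.36, −0.26 and −0.52 in sub-clusters 1, 2 and 4. The summed ratio of COL1A1, COL1A2 and COL3A1 was −0.19 (−0.54 to 0.16) in sub-cluster 1, −0.68 (−0.89 to −0.47) in sub-cluster 2, −1.03 (−1.50 to −0.59) in sub-cluster 4 and −2.31 (−3.13 to −1.59) in sub-cluster 3. In sub-cluster 3 (22 and 61 nuclei) the median depth was 5962.5 UMIs in WT and 772 in PIGinH11, and the stellate markers themselves were at −1.50 (−1.67 to −1.34). Without this sub-cluster, a setting chosen after seeing the data, the 3 genes were at −0.56 (−0.72 to −0.40), COL14A1 at −0.92 (−1.17 to −0.67), the 38 genes at −0.30 (−0.38 to −0.23) and the stellate markers at −0.34 (−0.38 to −0.29). COL6A6, at −1.77 (−2.98 to −0.74), was then the single gene at least 2-fold lower, and COL6A5 was at −0.81 (−1.81 to 0.10). Of the higher genes, COL15A1 was then at 0.30 (−0.06 to 0.66) and COL18A1 at 0.96 (−0.37 to 2.33), intervals that include 0. COL5A3 at 0.67 (0.21 to 1.12) and COL16A1 at 1.20 (0.41 to 2.02) stayed above 0.

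**Figure D4:**
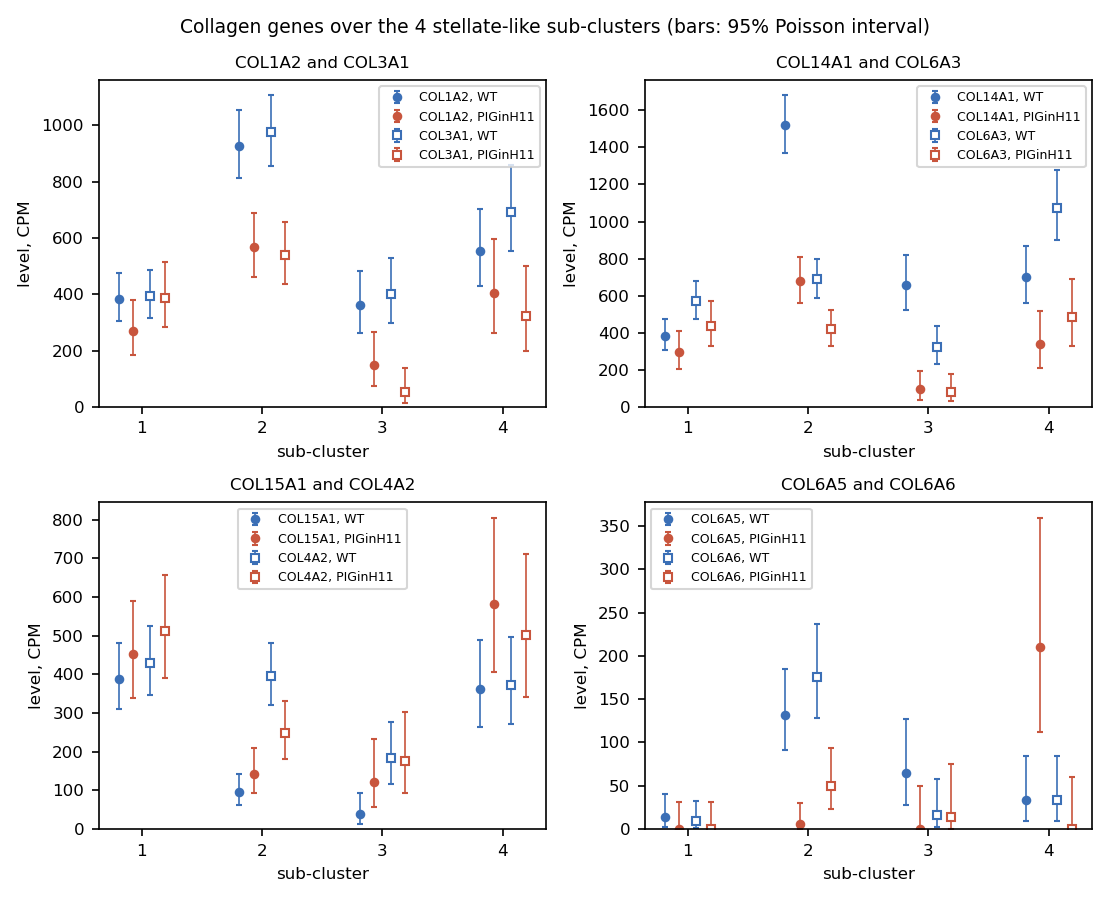
Levels of 8 collagen genes (CPM) over the 4 stellate-like sub-clusters in the WT and PIGinH11 libraries, with 95% Poisson intervals. COL14A1 peaks in sub-cluster 2 in both libraries, and COL15A1 is higher in sub-clusters 1 and 4 than in sub-cluster 2.

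Schwann-like nuclei gave a lower collagen sum in PIGinH11 that was not found in their larger sub-cluster with nuclei of both pigs. Of 12 genes with at least 20 UMIs, 2 were at least 2-fold lower (COL1A2 and COL11A1, background 9.45%) and 0 at least 2-fold higher (background 13.7%). Over the class, COL1A2 was at −1.758 (−3.380 to −0.363) from 18 and 6 UMIs and COL11A1 at −1.495 (−2.887 to −0.250) from 20 and 8 UMIs. Both passed the limit of 20 UMIs mainly through WT. Over sub-clusters holding both libraries, here sub-cluster 2 alone, the 2 genes were at −0.722 and −0.690, short of 2-fold. Sub-cluster 1 held 91 nuclei of PIGinH11 and 0 of WT, with a median of 796 UMIs and Schwann markers at 2957 CPM. COL3A1 was at 164 CPM and COL18A1 at 478 CPM in it. In sub-cluster 2 (38 and 37 nuclei), whose Schwann markers were at 25120 and 22000 CPM, COL3A1 was at 2103 CPM (1820 to 2418) in WT and 1922 CPM (1608 to 2279) in PIGinH11, and the collagen sum had a ratio of 0.10 (−0.09 to 0.29). COL5A3 was at 566 and 655 CPM and COL16A1 at 246 and 437 CPM in that sub-cluster.

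Mural-like nuclei, the contractile cells around vessels, had few nuclei and wide intervals. Of 13 genes with at least 20 UMIs, 0 were at least 2-fold lower (background 9.97%) and 3 at least 2-fold higher in PIGinH11 (COL4A5, COL18A1 and COL27A1, background 11.1%). These 3 passed the limit of 20 UMIs mainly through PIGinH11. Their ratios were 2.36 (0.79 to 4.36), 2.13 (0.83 to 3.70) and 2.29 (0.998 to 3.84). A PIGinH11 mural-like nucleus held 0.342 COL18A1 UMIs and a PIGinH11 acinar-like nucleus 0.543. COL4A2 was at 0.62 (0.13 to 1.13) and COL5A2 at 0.56 (0.10 to 1.02), while COL5A3 was at 0.19 (−0.22 to 0.60) and COL1A2 at −0.31 (−1.27 to 0.63). A sub-cluster of 32 nuclei came from PIGinH11 alone and held COL5A3 at 1344 CPM and COL4A2 at 1195 CPM.

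In endothelial-like nuclei, 17 genes had at least 20 UMIs, of which 0 were at least 2-fold lower in PIGinH11 (background 4.43%) and 3 at least 2-fold higher (COL8A1, COL25A1 and COL27A1, background 7.79%). The intervals of COL25A1 and COL27A1, each with 5 and 15 UMIs, include 0. Intervals lay wholly below 0 for 5 genes (background 10.4%) and wholly above 0 for 5 (background 16%). Higher in PIGinH11 were COL4A2 at 0.35 (0.14 to 0.55), COL5A2 at 0.69 (0.35 to 1.03), COL8A1 at 1.06 (0.23 to 1.95) and COL18A1 at 0.82 (0.28 to 1.38). Lower in PIGinH11 were COL13A1 at −0.76 (−1.40 to −0.13), COL15A1 at −0.42 (−0.78 to −0.05), COL21A1 at −0.92 (−1.44 to −0.40), COL23A1 at −0.64 (−1.04 to −0.24) and COL11A1 at −0.81 (−1.52 to −0.12). COL14A1 was at 0.81 (0.27 to 1.36). An acinar-like nucleus held 0.194 and 0.0916 of its UMIs and an endothelial-like nucleus 0.166 and 0.181. Of COL18A1 UMIs, an acinar-like nucleus held 0.408 and 0.543 and an endothelial-like nucleus 0.166 and 0.1835. The part of free acinar RNA in the endothelial-like values of both genes was not tested.

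Epithelial and endocrine nuclei had more collagen genes on the higher side. At least 2-fold higher in PIGinH11 were 16 of 32 genes in ductal-like nuclei (background 17.4%), 16 of 37 in acinar-like nuclei (background 21.7%) and 9 of 18 in endocrine-like nuclei (background 8.01%). At least 2-fold lower were 0 (background 3.63%), 1 (COL1A1, background 2.95%) and 0 (background 3.88%). Intervals lay wholly above 0 for 22, 21 and 10 genes of these classes (backgrounds 34.2%, 46% and 15.6%) and wholly below 0 for 1, 5 and 0 (backgrounds 14.3%, 18.5% and 9.08%). The UMI limit of 1300 kept only 23 WT and 136 PIGinH11 endocrine-like nuclei. Under it, COL4A5, COL4A6, COL13A1 and COL14A1 were at −0.18, −0.76, −1.35 and −0.76. No counting interval is given for these values, so their signs are uncertain. Some of the 2-fold higher endocrine-like genes passed the limit of 20 UMIs mainly through PIGinH11, such as COL4A3 with 9 and 23 and COL4A4 with 9 and 35 UMIs. Stellate markers were at 70.8 and 206 CPM in ductal-like, 53.1 and 121 CPM in acinar-like and 1715 and 1678 CPM in endocrine-like nuclei. Acinar markers were at 619 and 1012 CPM in ductal-like and 1744 and 3316 CPM in endocrine-like nuclei. For the 2-fold higher genes compared per nucleus in PIGinH11, an acinar-like nucleus held 15.0% (COL16A1) to 373% (COL23A1) of a ductal-like nucleus's UMIs. COL22A1 was at 34.4% and COL8A1 at 82.6%. Against an endocrine-like nucleus the range was 13.4% (COL4A4) to 367% (COL18A1). The part of stellate or acinar RNA in these values was not tested.

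The collagens with sizeable levels in these nuclei were mixed. In ductal-like nuclei COL5A2 was at 0.96 (0.87 to 1.06), COL4A6 at 0.60 (0.36 to 0.84), COL4A5 at 0.17 (0.03 to 0.30), COL4A2 at 0.12 (−0.01 to 0.25) and COL4A3 at −0.31 (−0.55 to −0.08). COL27A1 was at −0.05 (−0.23 to 0.14) in ductal-like and 0.11 (−0.09 to 0.31) in endocrine-like nuclei. COL18A1, at 1.48 (1.42 to 1.54) in acinar-like nuclei, made up much of the sum there, which had a ratio of 0.556 without it. COL23A1 stood out in endocrine-like nuclei, at 11 and 90.9 CPM, with 72 of its 99 PIGinH11 UMIs in sub-cluster 1 (11.1 and 270.4 CPM, 66 and 100 nuclei).

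COL4A3 and COL4A4 were high in the same 2 of 9 ductal-like sub-clusters in both libraries. In sub-cluster 9 (34 and 53 nuclei, with LGR5, ANXA13 and KRT7 among its leading genes), COL4A3 was at 951 and 778 CPM and COL4A4 at 432 and 459.8 CPM. In sub-cluster 6 (234 and 175 nuclei) they were at 347 and 205 CPM and 216 and 231 CPM. In the other 7 sub-clusters, COL4A3 did not exceed 45.1 CPM nor COL4A4 42.2 CPM. Sub-cluster 9 also held COL22A1, at 163 and 212 CPM. COL27A1 was low in it, at 6.26 and 47.2 CPM, and so was COL4A6, at 6.26 and 23.6 CPM.

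**Figure D5:**
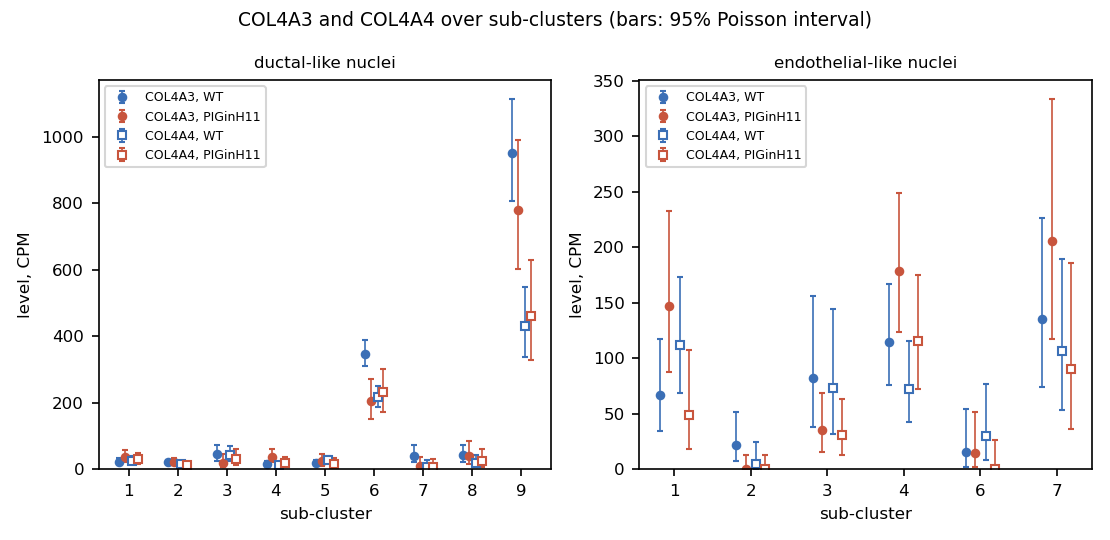
Levels of COL4A3 and COL4A4 (CPM) over sub-clusters of ductal-like (left) and sub-clusters 1 to 4, 6 and 7 of endothelial-like nuclei (right) in the WT and PIGinH11 libraries, with 95% Poisson intervals. Ductal-like sub-clusters 6 and 9 stand above the other 7 for both genes and libraries, and endothelial-like sub-clusters 2 and 6 stay at or under 30.0 CPM.

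Endothelial-like sub-clusters differed in the same pair. COL4A3 was at 115 and 178 CPM in sub-cluster 4 (FLT1 and PLVAP among its leading genes) and at 21.96 and 0 CPM in sub-cluster 2 (SLCO2A1 and TLL1 leading). COL4A4 was at 72.4 and 115 CPM in sub-cluster 4 and 4.39 and 0 CPM in sub-cluster 2. COL4A2 was at 447 and 891 CPM in sub-cluster 4 and at 97.5 and 42.7 CPM in sub-cluster 6 (VEGFC, NEBL and EFNB2 among its leading genes). COL23A1 was higher in sub-cluster 6 than in sub-cluster 4, with 773 and 313 CPM in sub-cluster 6 and 4.26 and 10.5 CPM in sub-cluster 4, and COL8A1 was at 113 and 178 CPM in sub-cluster 6. Among endocrine-like nuclei, COL8A1 was highest in the sub-cluster led by the somatostatin gene SST, at 478 and 183 CPM, against 0 and 3.35 CPM in sub-cluster 3, led by PCSK2 and CADM2.

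Several of the genes are neighbours on the Sscrofa11.1 assembly, which the choice by name did not use. On chromosome 15, the RefSeq models of COL4A3 (128611640 to 128763331) and COL4A4 (128472228 to 128612302) overlap. For each COL4A4 UMI there were 1.56 (1.37 to 1.77) and 1.33 (1.07 to 1.66) COL4A3 UMIs in ductal-like and 1.18 (0.828 to 1.67) and 1.63 (1.14 to 2.35) in endothelial-like nuclei. Acinar-like nuclei held 2.63 (2.19 to 3.17) and 1.69 (1.29 to 2.22), the WT value lying above both other WT intervals, and PIGinH11 endocrine-like nuclei 0.657 (0.371 to 1.14). COL3A1 (93556914 to 93595678) and COL5A2 (93611856 to 93981131), 16177 bases apart on the same chromosome, were in unlike proportions. COL5A2 had 1.40 (1.24 to 1.58) and 2.24 (1.87 to 2.71) UMIs per COL3A1 UMI in stellate-like, 0.211 (0.154 to 0.286) and 0.411 (0.305 to 0.550) in Schwann-like, and 92.2 (61.3 to 146) and 69.4 (46.1 to 109.8) in ductal-like nuclei.

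On chromosome 11, COL4A2 (76996885 to 77161617) overlaps COL4A1 (76858332 to 76997409), a gene without a symbol in the deposited list that is named here from the reference gene table and is not one of the 38. Each COL4A1 UMI came with 3.05 (2.46 to 3.82) and 3.15 (2.62 to 3.80) COL4A2 UMIs in endothelial-like nuclei and with 9.85 (8.40 to 11.6) and 10.5 (8.17 to 13.8) in ductal-like nuclei. The proportion was higher in ductal-like nuclei in both libraries. How reads in the overlap were assigned was not tested.

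The enzymes that make, process and bind collagen were followed in the same stellate-like nuclei through 5 lists, in which genes with at least 20 UMIs are counted. The background for each list is the 5.54% of all genes that were at least 2-fold lower and the 7.68% that were at least 2-fold higher. Of 14 genes for collagen synthesis and folding, 2 were at least 2-fold lower in PIGinH11 and 1 at least 2-fold higher, with a median log2 ratio of 0.07. The lysyl hydroxylase PLOD2 was at 322 and 525 CPM, a ratio of 0.70 (0.43 to 0.98), and MIA3, which helps to export procollagen, was at 0.48 (0.02 to 0.92). The prolyl hydroxylases P4HA1 and P3H2 were at 0.02 (−0.41 to 0.45) and −0.13 (−0.67 to 0.39). The genes past 2-fold, named after their values were seen, were P4HB at −1.13 (−1.85 to −0.46), PPIB at −1.33 (−2.49 to −0.30) and COLGALT1 at 1.15 (0.08 to 2.26).

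The lists for processing and for degradation were short, and members of each lay on both sides of 0. Of 7 genes for processing and crosslinking, 0 were at least 2-fold lower and 1 higher (LOXL2 at 1.56 (0.60 to 2.58), named after its value was seen), with a median of 0.39. The procollagen proteinases ADAMTS2, ADAMTS3 and BMP1 were at −0.38 (−0.86 to 0.07), 0.52 (0.00 to 1.03) and 0.43 (−0.19 to 1.05), and their enhancer PCOLCE at −0.19 (−0.81 to 0.42). Of 6 genes for degradation and its inhibitors, 1 was at least 2-fold lower and 0 higher, with a median of −0.58. The lower one was the protease FAP at −1.22 (−1.99 to −0.51), and the membrane protease MMP16 was at −0.79 (−1.09 to −0.50). The gelatinase MMP2 was at 0.33 (−0.16 to 0.81) and the inhibitor TIMP3 at −0.38 (−0.77 to 0.00).

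Collagen receptors and the TGF-beta axis, the best known inducer of collagen genes, showed no common direction. Of 6 receptors, 0 were at least 2-fold lower and 0 higher, with a median of −0.20. The receptor kinase DDR2 was at −0.23 (−0.50 to 0.03), the integrin chains ITGA1 and ITGB1 at −0.17 (−0.58 to 0.22) and 0.47 (0.03 to 0.91), and the endocytic receptor MRC2 at −0.22 (−0.65 to 0.20). Of 14 genes of the TGF-beta axis, 2 were at least 2-fold lower (TGFB3 and SMAD7) and 1 higher (TGFB1), all named after their values were seen, with a median of −0.12. The receptors TGFBR2 and TGFBR3 were at −0.11 (−0.42 to 0.19) and 0.06 (−0.15 to 0.27), SMAD4 at 0.52 (0.15 to 0.90) and the microfibril gene FBN1 at −0.24 (−0.42 to −0.07).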

How the data were processed

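Pancreas nuclei of 1 WT and 1 PIGinH11 pig were sequenced as 10x Genomics libraries. The authors deposited raw UMI counts for each gene and barcode, without normalization; these had been obtained with Cell Ranger (v3.1.0 according to the submitters' notes, v5.0.0 in the headers) on Sscrofa11.1, with EmptyDrops for calling nuclei. Of 39 collagen symbols in the gene list, 1 is not reported here.

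Nuclei were required to show between 270 and 3700 genes, under 13000 UMIs and under 10% mitochondrial UMIs. The methods print a UMI limit of 1300, which was run as an alternative. Scrublet scores (scanpy v1.11.5) marked 0.8% of barcodes per 1000 barcodes of a library as doublets, which were left out. Collagen genes, the 5 pathway lists, mitochondrial and ribosomal protein genes were kept out of the 2000 variable genes per library. The 30 principal components were corrected with Harmony and clustered with Louvain at resolution 1. A class name needed at least 3 markers, each in at least 5% of the cluster and with a log2 fold of 1 or more. A second clustering within classes, not run for acinar-like nuclei, left out sub-clusters that another class's markers matched best (89 endothelial-like, 43 endocrine-like and 11 stellate-like nuclei). Values over sub-clusters holding both libraries leave out those with few nuclei of either library. Among these were a Schwann-like one with 8 and 3 nuclei and a mural-like one with 3 and 20.

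UMIs were summed per class and library and expressed per 1000000 UMIs. Exact 95% intervals (Poisson for sums, Clopper-Pearson for shares, conditional binomial for ratios) cover counting error only, and the floor for a count of 0 was 3 counts. These steps were tested on simulated data. Thinning to 500 UMIs left out 0 nuclei. With 1 library per group no p-value is given. Genes with at least 100 UMIs over the 7 classes were described by type, and from each pathway list the 4 genes with the most UMIs in stellate-like nuclei. The members and lists were chosen with earlier results of these data known. Gene positions come from RefSeq models of Sscrofa11.1, matched by symbol, and no sequence is shown.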

Additional observations from a re-analysis of the deposited data

Results flagged for a closer look

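Some log2 ratios of PIGinH11 over WT had opposite signs in different classes, with counting intervals apart from 0. With 1 library per group, none of these differences between classes was tested. COL14A1 was at −1.05 in stellate-like and 0.81 in endothelial-like nuclei. The stellate-like ratio was 0.04 under the UMI limit of 1300, which kept 30 and 179 stellate-like nuclei. An acinar-like nucleus held 117% of the COL14A1 UMIs of an endothelial-like nucleus in WT and 50.5% in PIGinH11. The part of free acinar RNA in these values was not tested. COL15A1 was at −0.42 in endothelial-like and −0.91 in Schwann-like nuclei, against 0.37 in stellate-like nuclei. The summed collagen level was at −0.36 in stellate-like and −0.32 in Schwann-like nuclei, against 0.58 in mural-like and 0.11 in endothelial-like nuclei. Of these sums, the Schwann-like ratio was 0.163 without Harmony, 0.097 over sub-clusters holding both libraries and 1.438 under the UMI limit of 1300. The endothelial-like ratio was −0.553 with the whole acinar-like level subtracted as free RNA, an extreme setting, and −0.089 under that limit.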

How the results depend on the processing

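With 1 library per group, no replicate could be left out, and the intervals do not cover the difference between animals. No paired analysis was possible because each group has a single library. Of the log2 ratios of the summed collagen level recomputed under the main alternatives, 43 stayed within the counting interval, 15 moved out of it and 4 changed sign. For 5 alternatives chosen after seeing the data these counts were 24, 4 and 1. The mural-like ratio stayed between 0.400 and 0.615. With the UMI limit of 1300, which left 30 stellate-like, 2 mural-like, 17 endothelial-like, 12 Schwann-like and 23 endocrine-like nuclei of WT, the ratio was −0.089 in endothelial-like, 1.438 in Schwann-like and 0.173 in endocrine-like nuclei. The whole acinar-like level was also subtracted, as if all UMIs of a class were free acinar RNA. This gave −0.508 in stellate-like, −0.553 in endothelial-like, −0.511 in Schwann-like, 0.227 in ductal-like and 0.230 in endocrine-like nuclei. The true part of free RNA was not estimated, so this setting is an extreme. Acinar markers were at 619 and 1012 CPM in ductal-like nuclei, against 15290 and 13560 CPM in acinar-like nuclei. Median-of-ratios scaling gave −0.483 in stellate-like, 0.624 in acinar-like and 0.351 in ductal-like nuclei. Thinning to 500 UMIs gave 0.326 in endothelial-like, −0.668 in Schwann-like, 0.888 in acinar-like and 0.580 in ductal-like nuclei. A mean over nuclei gave −0.641 in Schwann-like, 0.931 in acinar-like and 0.559 in ductal-like nuclei. Without Harmony the Schwann-like ratio was 0.163, and over sub-clusters with nuclei of both libraries 0.097. Nuclei of at least 1000 UMIs gave −0.104 in Schwann-like, 0.717 in acinar-like and 0.433 in ductal-like nuclei, and the acinar-like ratio was 0.556 without COL18A1. The genes highest in stellate-like nuclei numbered 3 under the UMI limit of 1300 and 7 over sub-clusters holding both libraries, against 10. Those highest in endothelial-like nuclei numbered 1 under that limit and 4 without doublet removal, against 2. In stellate-like nuclei, 1 gene in place of 3 was at least 2-fold lower with a minimum of 100 UMIs, in nuclei of at least 1000 UMIs and without sub-cluster 3. At least 2-fold higher was 1 gene, against 2 without doublet removal, 0 with a minimum of 100 UMIs and 6 with 1 UMI in each library as the minimum. For these shifts the cause was not tested.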

Other observations

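A stellate-like sub-cluster that adipocyte markers matched best, with 5 nuclei of WT and 6 of PIGinH11, was left out of the class. COL3A1 was at 3009 CPM from 71 UMIs in WT and at 191 CPM from 6 UMIs in PIGinH11 in it. COL5A2 was at 2882 and 478 CPM. An endothelial-like sub-cluster that lymphatic endothelial markers matched best, with 14 and 75 nuclei, was left out too. It held no UMI of COL23A1 or COL8A1 in WT, and 125 CPM of COL23A1 from 10 UMIs and 8 UMIs of COL8A1 in PIGinH11.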
